A study of Rattus norvegicus with 60 samples.

Results

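The 7 sodium pump and calcium clearance genes were followed across the frontal cortex of 60 rats, taken as every probe set whose platform annotation gave 1 of the symbols Atp1b1, Atp1b2, Atp2b1, Atp2b2, Atp2a2, Slc8a1 and Slc8a2 alone. The rule found 17 probe sets among the 31042 on the Affymetrix rat expression array, for 7 of the 14217 genes named by at least 1 probe set. Adult male Long-Evans rats, 62 to 64 days old, received a single oral dose in corn oil and were sampled 6 h later, with 1 array per rat. The vehicle group held 12 rats given corn oil alone. Deltamethrin was given at 0.3, 1 or 3 mg/kg and permethrin at 1, 10 or 100 mg/kg, with 8 rats at each dose. Both are pyrethroid insecticides, and deltamethrin carries an α-cyano group that permethrin lacks. All 7 groups therefore shared the corn oil and the gavage, and a dissected piece of cortex mixes neurons, glia and vessel cells, so that fewer cells of a type and less RNA per cell cannot be told apart.

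Pyrethroids hold voltage-sensitive sodium channels open, which lets sodium into neurons and prolongs their firing. The sodium pump restores the sodium and potassium gradients with energy from ATP, and its beta subunits carry the catalytic alpha subunit to the membrane. Calcium that enters during firing is cleared by plasma membrane calcium pumps, by the endoplasmic reticulum calcium pump and by sodium/calcium exchangers, which use the sodium gradient that the sodium pump maintains. The comparisons asked whether transcripts of this clearance machinery differed between vehicle and doses that ran from below the no-effect level for motor activity to above it.

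The promoters of Atp1b2 and Atp2b1 are shown because Atp1b2 differed most by rat number and Atp2b1 followed the main axis of variation among the arrays most closely of the 7 genes. Sequences 250 bases before to 50 bases after the annotated start were found in RefSeq (GRCr8) for 6 of the 7 genes. Capitals mark the GC box GGGCGG, the CCAAT box CCAAT and the TATA box TATAAA on either strand. None of these motifs overlapped another in the sequences shown.
Atp1b2, chr10:54823659-54823958, minus strand: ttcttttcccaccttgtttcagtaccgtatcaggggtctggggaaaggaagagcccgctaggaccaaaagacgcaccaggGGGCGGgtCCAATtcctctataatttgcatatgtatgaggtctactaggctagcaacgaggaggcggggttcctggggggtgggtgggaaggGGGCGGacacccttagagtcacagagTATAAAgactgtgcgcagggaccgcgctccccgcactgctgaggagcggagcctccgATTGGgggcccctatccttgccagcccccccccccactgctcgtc
Atp2b1, chr7:35622211-35622510, plus strand: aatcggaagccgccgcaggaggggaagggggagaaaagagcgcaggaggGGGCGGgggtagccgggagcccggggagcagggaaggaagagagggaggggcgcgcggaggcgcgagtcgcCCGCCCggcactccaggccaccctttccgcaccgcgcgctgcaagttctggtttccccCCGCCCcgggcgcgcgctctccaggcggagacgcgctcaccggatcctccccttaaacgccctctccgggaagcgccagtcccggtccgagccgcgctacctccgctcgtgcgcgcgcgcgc
The Atp1b2 window held 2 GC boxes, 2 CCAAT boxes and 1 TATA box at 60.3% G and C. The Atp2b1 window held 3 GC boxes and none of the other motifs at 74.3% G and C, more than 96.3% of the 33469 promoters in the table. Over all those promoters, 33.1% held a GC box, 37.5% a CCAAT box and 14.2% a TATA box, and the cAMP response element TGACGTCA, held by 1.83%, was in none of the 6 windows. A match in these letters is a description of the window and not a binding site.

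The arrays fell into 2 groups that followed the rat numbers in the sample titles. Rats numbered 1 to 6 in the vehicle group and 1 to 3 at each dose (24 arrays, called low-numbered rats below) were separated from vehicle rats 7 to 12 and dosed rats 4 to 8 (36 arrays, high-numbered rats) on the first 2 principal components, for 60 of 60 arrays. The labels do not say what the numbers stand for. The study's methods describe a preliminary and a second cohort of rats, dosed on separate days and combined on the arrays, and the sizes of those cohorts match the sizes of these sets in every group. No label assigns a rat to a cohort, so this match is of sizes alone, and a day of dosing or anything else that differed between cohorts cannot be told apart from the rat number. The first component held 58.0% of the variance, and its score ran from -33.4 to 90.1 in low-numbered rats and from -33.0 to 17.9 in high-numbered rats. Because vehicle rats were split 6 to 6 and each dose 3 to 5, dose differences are also given with this array group as a block. Neuronal markers were brighter than 95.8% to 99.8% of probe sets (8 of 8 genes measured) and astrocyte markers than 68.8% to 99.8% (8 of 8). The summed linear level of choroid plexus markers ran from 462 to 12661 over the rats, with Ttr the brightest of its 4 measured markers.

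Expression of all 7 genes was measured in every rat. Of the 17 probe sets, 14 were brighter than the median probe set, and the other 3 were dim ones of Atp2a2 (1391771_at and 1375164_at) and Slc8a1 (1370588_a_at). Levels of different probe sets are not compared, since each has its own probes. Over the 60 rats the narrowest spread was that of Atp2a2 1391771_at (SD 0.12 on the log2 scale) and the widest that of Atp2b1 1397224_at (SD 0.51).

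No probe set of the 7 genes passed the test at any dose of either compound. With limma, and p adjusted over the whole array by Benjamini-Hochberg, 0 of 17 were called in each of 12 comparisons: the 6 doses against vehicle, any dose and a linear dose trend of each compound, and the compounds against each other at 1 mg/kg and at their highest doses. The background was the same, with 0% of all probe sets called in each. At an unadjusted p under 0.05 the members gave 1 probe set at 1 mg/kg permethrin (background 1.18%), 1 at 10 mg/kg permethrin (background 3.48%), 1 between the compounds at 1 mg/kg (background 2.73%) and 0 in the others. The backgrounds there were 0.751%, 2.24% and 1.36% at 0.3, 1 and 3 mg/kg deltamethrin, 1.24% at 100 mg/kg permethrin and 0.802% between the highest doses. For any dose they were 0.725% (deltamethrin) and 1.23% (permethrin), and for the linear trend 1.36% and 0.696%. With the array group as a block, 0 of 17 were again called at the highest doses, against 0.00966% of all probe sets for deltamethrin and 0% for permethrin, and the lowest adjusted p of any member in any dose comparison was 0.513.

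**Figure D1:**
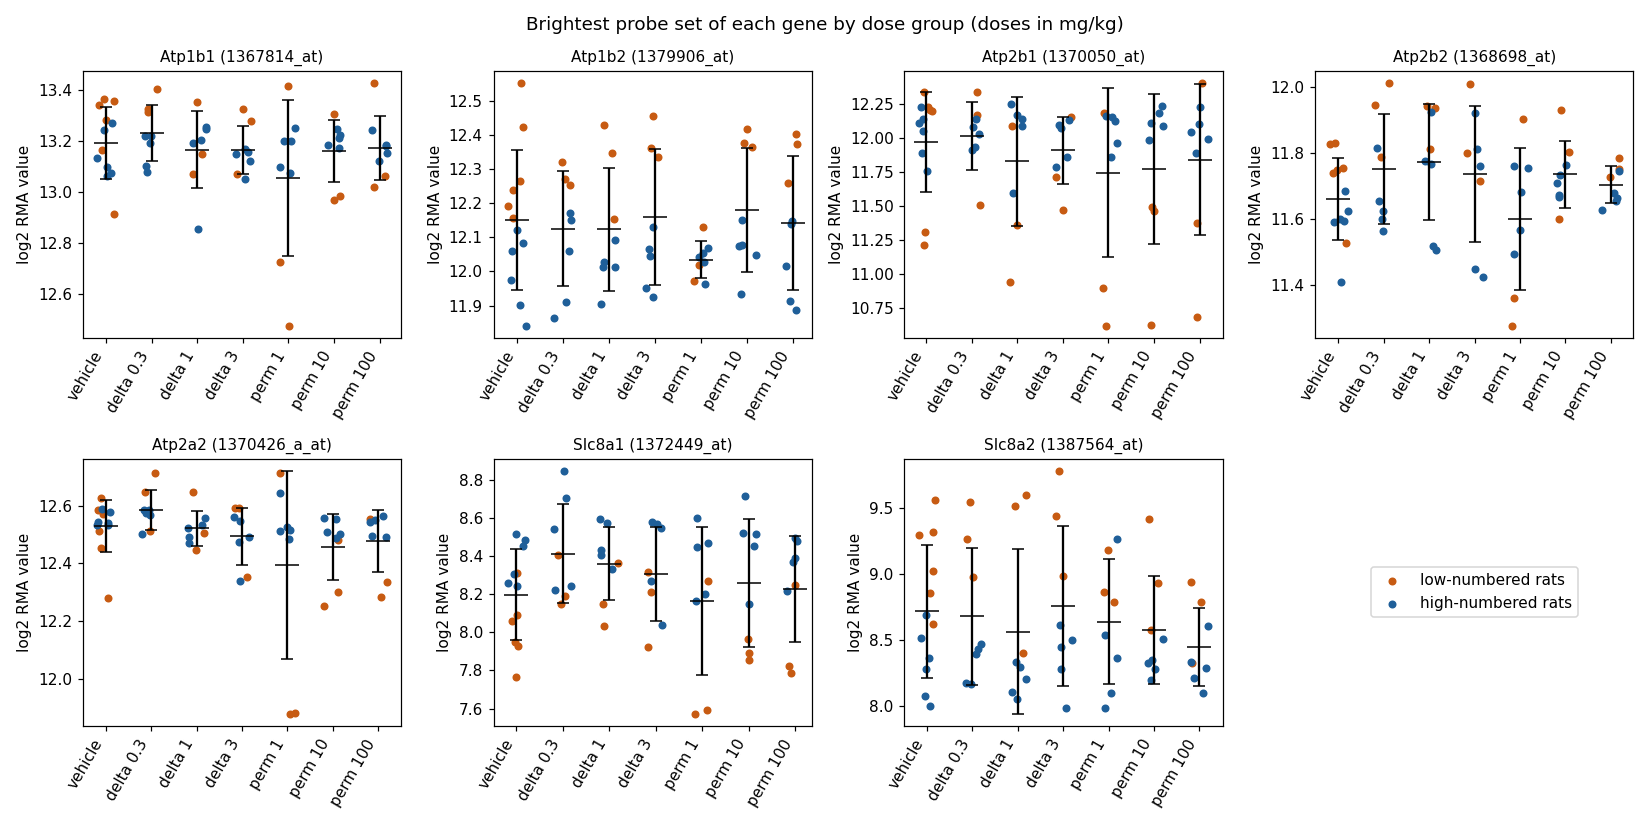
Log2 RMA values of the brightest probe set of each gene (vertical axes) in the 7 groups (horizontal axes, doses in mg/kg), with 1 point per rat and the mean ± SD as bars. Every dose group overlaps the vehicle group, and low-numbered rats are higher in mean than high-numbered rats for Atp1b2 and Slc8a2, with overlap in dosed rats and, for Slc8a2, in vehicle rats.

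The sodium pump beta subunits come first. Atp1b1 encodes the widely used beta1 subunit, prominent in neurons. Its brighter probe set 1367814_at ran in vehicle rats from 12.91 through a median of 13.20 to 13.37, at 3 mg/kg deltamethrin from 13.05 through 13.15 to 13.32, and at 100 mg/kg permethrin from 13.02 through 13.17 to 13.43. The groups overlapped almost fully. The log2 difference from vehicle was -0.03 (SE 0.074, 95% interval -0.18 to 0.12) for deltamethrin and -0.02 (SE 0.074, -0.17 to 0.13) for permethrin. These were among the narrower intervals of the 17 probe sets. The other probe set, 1386937_at, differed by 0.03 (-0.17 to 0.22) and 0.01 (-0.19 to 0.21).

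Atp1b2 encodes the beta2 subunit, also known as an adhesion molecule on glia, and is strongly expressed by astrocytes. Probe set 1379906_at ran from 11.84 through 12.14 to 12.55 in vehicle rats, from 11.92 through 12.10 to 12.46 at 3 mg/kg deltamethrin and from 11.89 through 12.14 to 12.40 at 100 mg/kg permethrin. At both doses the values lay inside the vehicle range in all rats. The differences were 0.01 (SE 0.081, -0.15 to 0.17) and -0.01 (-0.17 to 0.15). Probe set 1369798_at was far more variable, from 10.48 to 11.85 in vehicle rats and from 9.87 to 12.01 at 3 mg/kg deltamethrin. Its standard error of 0.232 fell to 0.118 with the array group as a block, and its differences at the highest doses were then 0.02 (-0.22 to 0.26) and -0.11 (-0.34 to 0.13).

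Plasma membrane calcium pumps export calcium with energy from ATP. Atp2b1 encodes the broadly expressed pump PMCA1, and its 3 probe sets had some of the widest intervals of the set. Probe set 1370050_at ran from 11.21 through 12.12 to 12.34 in vehicle rats, from 11.46 through 11.96 to 12.15 at 3 mg/kg deltamethrin and from 10.68 through 12.01 to 12.40 at 100 mg/kg permethrin. The medians lay close together, and no rat given 3 mg/kg deltamethrin lay outside the vehicle range, while at 100 mg/kg permethrin 1 rat lay below it and 1 above. The differences at the highest doses were -0.06 (SE 0.203, -0.47 to 0.34) and -0.13 (-0.54 to 0.27). The largest difference from vehicle of any member at any dose was that of Atp2b1 1386426_at at 1 mg/kg permethrin, -0.32 (SE 0.224, unadjusted p = 0.166 from limma, adjusted p = 1.00).

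Atp2b2 encodes PMCA2, a fast calcium pump of neurons. Probe set 1368698_at ran from 11.41 through 11.65 to 11.83 in vehicle rats, from 11.51 through 11.79 to 11.94 at 1 mg/kg deltamethrin and from 11.28 through 11.62 to 11.90 at 1 mg/kg permethrin. The compounds overlapped at this shared dose. Deltamethrin was higher than permethrin there by 0.17 (SE 0.078, 0.02 to 0.33), with an unadjusted p of 0.0314 and an adjusted p of 1.00 from limma. The other probe set, 1387285_at, differed by 0.03 between the compounds (-0.27 to 0.32).

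Atp2a2 encodes SERCA2, the pump that returns calcium to the endoplasmic reticulum. Probe set 1369065_a_at ran from 12.01 through 12.37 to 12.47 in vehicle rats and from 11.58 through 12.33 to 12.41 at 1 mg/kg permethrin. The medians differed little, and 2 of the 8 dosed rats lay below every vehicle rat. The difference was -0.16 (SE 0.078, from -0.31 to just under 0), with an unadjusted p of 0.0494 and an adjusted p of 1.00 from limma. It was not ordered by dose, being -0.01 at 10 mg/kg and -0.06 at 100 mg/kg (-0.22 to 0.09). The brightest probe set, 1370426_a_at, was also lower in mean at 1 mg/kg permethrin, by -0.13 (SE 0.067, unadjusted p = 0.0505 from limma). There 4 of 8 rats lay outside the vehicle range. With the array group as a block this difference was -0.14 (SE 0.064, unadjusted p = 0.0287, adjusted p = 0.881 from limma). The same probe set differed by -0.04 at 3 mg/kg deltamethrin (-0.17 to 0.10) and by -0.05 at 100 mg/kg permethrin (-0.19 to 0.08).

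The sodium/calcium exchangers use the inward sodium gradient to export calcium. Slc8a1 encodes NCX1, and its probe set 1372449_at ran from 7.77 through 8.25 to 8.52 in vehicle rats, from 7.92 through 8.29 to 8.58 at 3 mg/kg deltamethrin and from 7.78 through 8.31 to 8.50 at 100 mg/kg permethrin. The groups overlapped, with differences of 0.11 (SE 0.126, -0.14 to 0.36) and 0.03 (-0.22 to 0.28). Its dim probe set 1370588_a_at was lower in mean at 10 mg/kg permethrin (log2 difference -0.14, from -0.28 to just under 0, unadjusted p = 0.0491, adjusted p = 0.961 from limma). Slc8a2 encodes NCX2, an exchanger of brain neurons, and has a single probe set, 1387564_at. It ran from 8.00 through 8.66 to 9.56 in vehicle rats, from 7.99 through 8.56 to 9.78 at 3 mg/kg deltamethrin and from 8.10 through 8.33 to 8.94 at 100 mg/kg permethrin. All 8 rats at the highest permethrin dose lay inside the vehicle range. The differences were 0.04 (SE 0.223, -0.41 to 0.49) and -0.27 (-0.71 to 0.18). Between the highest doses deltamethrin was higher by 0.31 (SE 0.245, -0.19 to 0.80), and with the array group as a block the standard error was 0.155 and the interval -0.01 to 0.62.

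**Figure D2:**
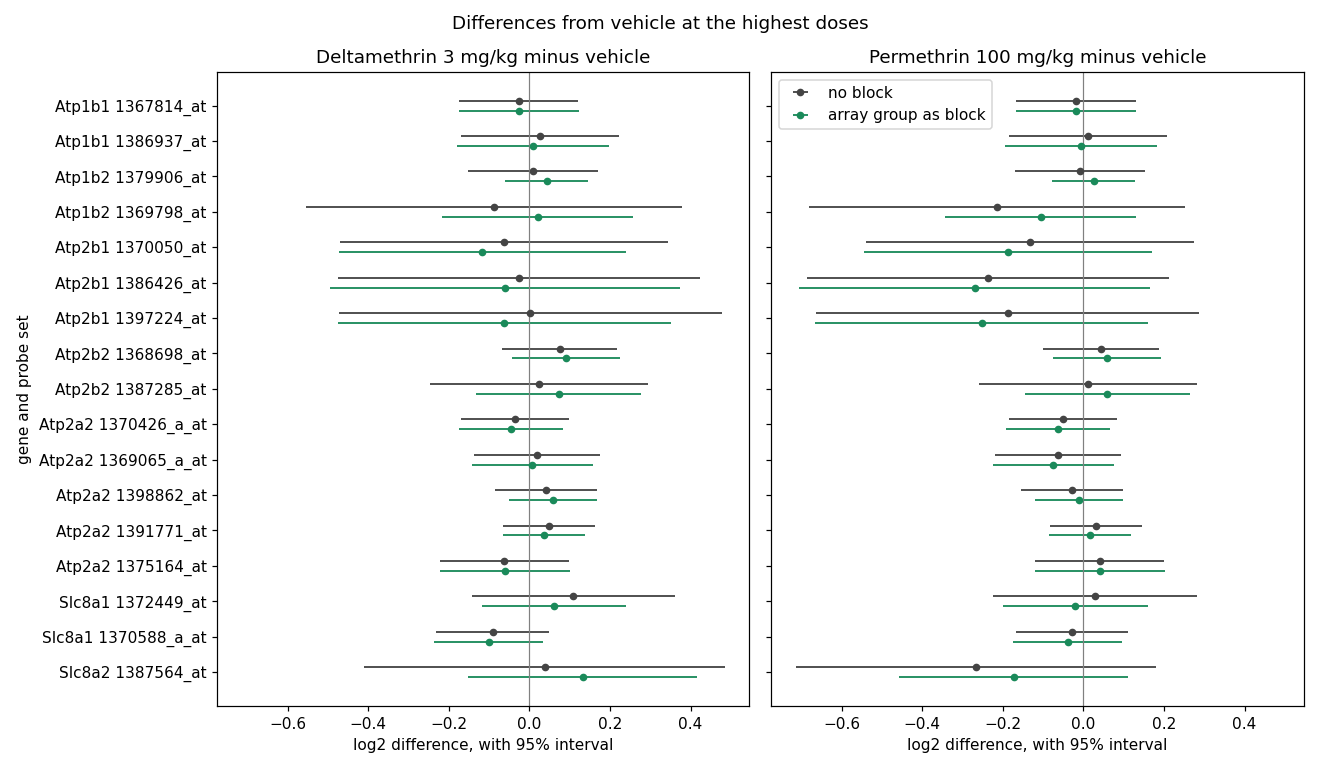
Log2 differences from vehicle with 95% intervals (horizontal axis) for each of the 17 probe sets (vertical axis) at the highest dose of each compound, without and with the array group as a block. Every interval holds 0, and blocking narrows those of Atp1b2 1369798_at, from an SE of 0.232 to 0.118, and Slc8a2, from 0.223 to 0.142.

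The members were compared with the rest of their pathways through 4 lists, each gene entering by its brightest probe set. The lists held 10 measured sodium pump subunits and regulators and 14 other calcium pumps, exchangers and their regulators. They also held 20 genes of calcium release, uptake and buffering and 4 sodium/proton exchangers and bicarbonate cotransporters. None of these genes was called by limma at either highest dose, and none had an unadjusted p under 0.05 there. The median log2 difference of the sodium pump list was 0.00 at 3 mg/kg deltamethrin, where that of all probe sets was -0.01, and 0.07 at 100 mg/kg permethrin, where that of all probe sets was 0.01. For the calcium pump and exchanger list it was -0.01 at both. For the list of calcium release, uptake and buffering it was 0.03 and 0.00, and for the sodium/proton and bicarbonate list 0.00 and -0.02. The lowest unadjusted p of the 4 lists at these doses was that of Slc24a3, a potassium-dependent sodium/calcium exchanger, at 3 mg/kg deltamethrin (0.11, SE 0.055, unadjusted p = 0.0505, adjusted p = 1.00 from limma). For the members themselves the median was 0.01 for deltamethrin and -0.03 for permethrin at the highest doses.

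The genes with the lowest p in the other lists also had intervals that held 0. At 3 mg/kg deltamethrin these were Fxyd4, a small pump regulator (-0.08, -0.20 to 0.03), the endoplasmic reticulum calcium sensor Stim2 (0.18, -0.03 to 0.39) and the sodium/proton exchanger Slc9a5 (0.00, -0.16 to 0.15). At 100 mg/kg permethrin they were Atp1b4 (0.08, -0.01 to 0.17), the calcium entry channel Orai1 (0.21, -0.08 to 0.49), Slc9a5 (0.06, -0.09 to 0.22) and Slc24a3 (0.06, -0.05 to 0.17).

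The members varied between the low- and high-numbered rats instead. Among vehicle rats, which received no pyrethroid, limma called 4 of 17 probe sets, against 5.46% of all probe sets. Of these, 3 were higher in low-numbered rats (background 3.39%) and 1 was lower (background 2.07%). Among dosed rats, with the dose as a term, it called 13 of 17 (background 58.9%), 6 of them higher (background 31.6%) and 7 lower (background 27.2%). The direction was the same in vehicle and dosed rats for 13 of the 17. The share of all probe sets with the same direction was not computed, so this count has no background beside it. The part of the cohorts in these differences was not tested.

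Atp1b2 differed most. Probe set 1369798_at ran from 11.41 through 11.64 to 11.85 in the 6 low-numbered vehicle rats and from 10.48 through 10.62 to 10.91 in the 6 high-numbered ones. These ranges did not overlap. The log2 difference was 0.96 (SE 0.098, adjusted p = 0.000115 from limma), a 1.94-fold higher level, and only 0.332% of all probe sets differed as much in vehicle rats. In dosed rats the difference was 0.85 (SE 0.082, adjusted p = 1.13e-11), with some overlap, from 11.02 to 12.01 against 9.87 to 11.48. Probe set 1379906_at also did not overlap in vehicle rats, from 12.16 to 12.55 against 11.84 to 12.12, but its difference was smaller, 0.31 (SE 0.080, adjusted p = 0.0418). The difference between both probe sets of Atp1b2 within each rat (1379906_at minus 1369798_at) was itself unequal, -0.65 in low- against high-numbered rats (exact permutation test over the 12 vehicle rats, two-sided p = 0.00216, the smallest 924 splits allow, adjusted p = 0.0368 over 17 pairs of probe sets of 1 gene, chosen after the values were seen). This was not particular to Atp1b2. In the same permutation test Atp2b1 1370050_at minus 1386426_at differed by -0.23 (adjusted p = 0.0491). Atp2b1 1386426_at minus 1397224_at differed by 0.28 (adjusted p = 0.0491), and 1370050_at minus 1397224_at by 0.05 (adjusted p = 0.628). Of the 8 astrocyte markers, 1 was called in vehicle rats and was higher (S100b), and 7 in dosed rats, of which 4 were higher and 3 lower (5.46% and 58.9% of all probe sets were called). Their summed linear level ran from 26214 to 36620 in low-numbered and from 32288 to 36386 in high-numbered rats, and their part in the Atp1b2 difference was not tested.

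Slc8a2 was likewise higher in low-numbered vehicle rats, from 8.62 through 9.16 to 9.56 against 8.00 through 8.33 to 8.69. The ranges overlapped only at their ends. The difference was 0.79 (SE 0.160, adjusted p = 0.0107 from limma), 1.73-fold, and in dosed rats 0.74 (SE 0.094, adjusted p = 8.88e-09). Slc8a1 1372449_at went the other way, from 7.77 through 8.01 to 8.31 in low-numbered vehicle rats against 8.24 through 8.38 to 8.52, again with a small overlap. It differed by -0.36 (SE 0.090, adjusted p = 0.0345) in vehicle and by -0.40 (SE 0.061, adjusted p = 5.27e-07) in dosed rats. Slc8a2 and this brighter Slc8a1 probe set thus lay on opposite sides of 0 in both vehicle and dosed rats. The dim Slc8a1 probe set, 1370588_a_at, was called in neither. Of all probe sets, 27.1% differed as much as it did in vehicle rats and 75.5% in dosed rats. Of the 8 neuronal markers, 2 were called in vehicle rats, both higher in low-numbered rats (Nefl and Slc17a7), and 8 in dosed rats, 3 higher and 5 lower, beside the same shares of all probe sets.

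Some markers of other cells also differed by rat number, and for some cell types all those called lay in 1 direction. The counts below stand beside 5.46% of all probe sets called in vehicle rats and 58.9% in dosed rats. Of the 6 endothelial and mural markers, 2 were called in vehicle rats (Flt1 and Tek) and 5 in dosed rats, all higher in low-numbered rats. Their summed level ran from 3640 to 5704 in low-numbered and from 3425 to 4506 in high-numbered rats, a mean log2 difference of 0.26 in vehicle and 0.30 in dosed rats. Of the 6 microglial markers, 0 were called in vehicle rats and 4 in dosed rats, all higher, with summed levels from 2188 to 4841 against 2367 to 3379 and mean log2 differences of 0.22 and 0.33. Of the 6 oligodendrocyte markers 0 were called in vehicle and 3 in dosed rats, 2 higher and 1 lower, and the 6 striatal markers gave the same counts. None of the 4 choroid plexus markers was called, although their summed level differed by -1.54 in vehicle rats and by -0.09 in dosed rats. Of the 2 blood cell markers, 1 was called in dosed rats, and it was lower. The part of these cell types in the differences of Atp1b2, Slc8a2 and Slc8a1 was not tested.

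**Figure D3:**
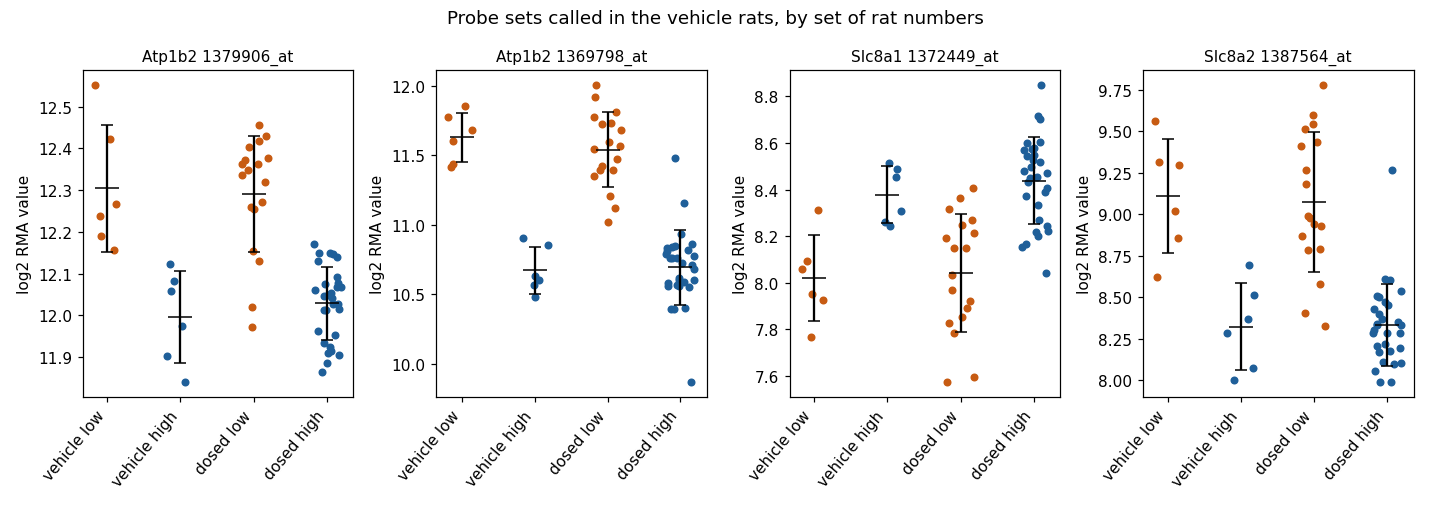
Log2 RMA values of the 4 probe sets called among vehicle rats (vertical axes), by vehicle or dosed and low- or high-numbered rats (horizontal axes), with 1 point per rat and the mean ± SD as bars. Low-numbered rats are higher for Atp1b2 and Slc8a2 and lower for Slc8a1, with no overlap in vehicle rats for Atp1b2.

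The calcium pumps were called among dosed rats alone, where 58.9% of all probe sets were called against 5.46% in vehicle rats. Whether the difference itself changed between vehicle and dosed rats was not tested. In vehicle rats 9.15% of all probe sets differed as much as the uncalled Atp2b2 1387285_at. For Slc8a1 1372449_at, which was called there, the share was 8.78%. Atp2b1 was lower in low-numbered dosed rats on all 3 probe sets, by log2 differences of -0.52 (SE 0.114), -0.38 (SE 0.141) and -0.61 (SE 0.130). Its probe set 1370050_at ran from 10.61 through 11.48 to 12.40 in the 18 low-numbered dosed rats and from 11.59 through 12.08 to 12.25 in the 30 high-numbered ones. The low-numbered rats thus reached both above and below the others. Atp2b2 was higher by 0.39 (SE 0.069) on 1387285_at and by 0.11 (SE 0.046) on 1368698_at. Atp2a2 was divided, 0.13 higher on 1398862_at, lower on 1369065_a_at (-0.12) and 1391771_at (-0.11), and uncalled on its brightest probe set (-0.10, adjusted p = 0.0610). Atp1b1 was lower on 1386937_at (-0.17, adjusted p = 0.0216) and uncalled on 1367814_at (-0.02, adjusted p = 0.794).

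**Figure D4:**
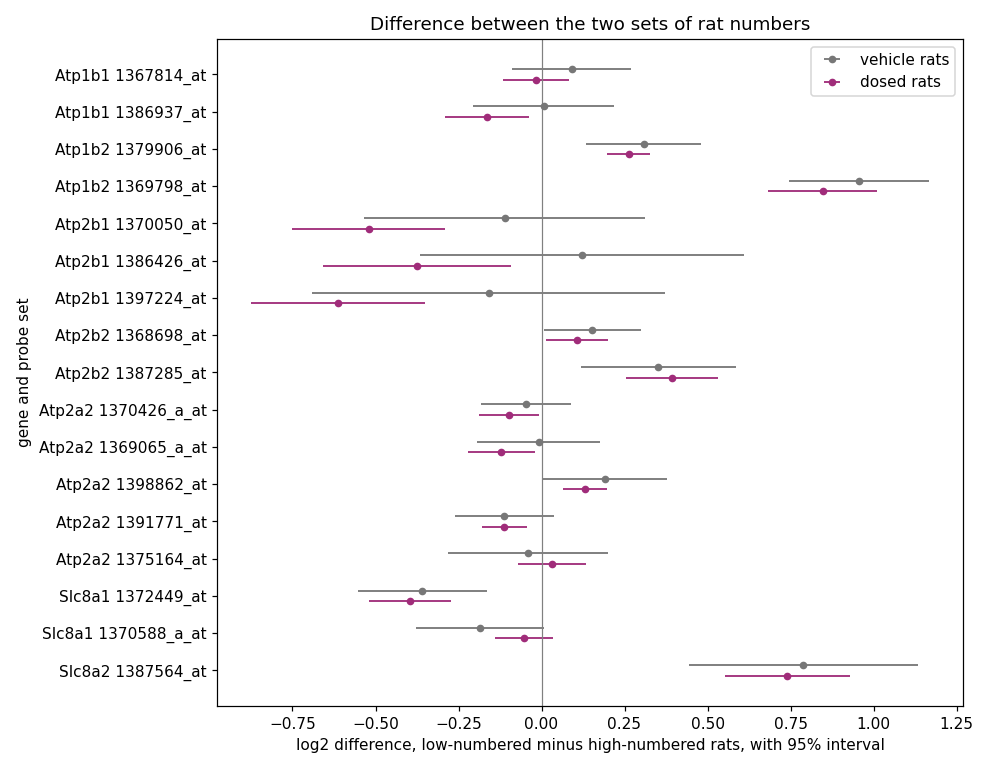
Log2 differences, low-numbered minus high-numbered rats, with 95% intervals (horizontal axis) for the 17 probe sets (vertical axis), in vehicle and in dosed rats. The intervals of Atp1b2 and Slc8a2 lie above 0 in both, and those of Slc8a1 1372449_at lie below 0 in both.

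Other genes of these pathways also differed by rat number. Among vehicle rats 3 of the 20 genes of calcium release, uptake and buffering were called and 0 of 10, 0 of 14 and 0 of 4 in the other lists, where 5.46% of all probe sets were called. The 3 were higher in low-numbered rats: the mitochondrial calcium uniporter Mcu (0.29), the calcium buffer Pvalb (0.46) and the calcium sensor Ncs1 (0.52). Among dosed rats 6 of the 10 genes of the sodium pump list were called, with Atp1a4, Fxyd1, Fxyd2, Fxyd6 and Fxyd7 higher and Atp1b4 lower. Of these, Atp1a4, Atp1b4 and Fxyd2 were dim, brighter than only 2.60%, 4.70% and 17.5% of probe sets. Their log2 differences were 0.06, -0.08 and 0.20. Of the list of calcium pumps, exchangers and their regulators 8 of 14 were called. Higher were Atp2c2, Slc8a3, Slc8b1, Slc24a4 and the pump regulator Sln, and lower were Atp2b4, Atp2c1 and Slc24a2. Atp2c2 was the dimmest of them, brighter than 22.1% of probe sets. Of the genes of calcium release, uptake and buffering 15 of 20 were called, 9 higher and 6 lower. They were Ryr1, Stim1, Orai1, Mcu, Letm1, Pvalb, Calr, Hpca and Ncs1 (higher) and Itpr1, Ryr2, Ryr3, Calb1, Calb2 and Canx (lower). All 4 sodium/proton exchangers and bicarbonate cotransporters were called, with Slc9a5 higher and Slc4a4, Slc4a7 and Slc4a10 lower. These shares stand beside the 58.9% called over all probe sets.

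Atp2b1 followed the main axis of variation among the arrays. Correlations with the score on the first principal component were computed for the 17 probe sets within each set of rats (34 relations), since the arrays form separate clusters. In the 24 low-numbered rats Pearson's r of the 3 Atp2b1 probe sets was -0.97, -0.96 and -0.97 and Spearman's rho -0.97, -0.96 and -0.94, each with a permutation p of 1e-05, the smallest that 100000 resamples give, and an adjusted p of 2.43e-05 for r. Without the 2 rats farthest from the median score r was -0.97, -0.96 and -0.97. In the 36 high-numbered rats r was -0.89, -0.84 and -0.86 (rho -0.85, -0.78 and -0.80, permutation p again 1e-05), and -0.83, -0.82 and -0.82 without 2 rats. Of all probe sets, 1.06%, 2.84% and 1.27% had an r as large in low-numbered rats, where the median size of r over all probe sets was 0.71. The component was computed from these same arrays and is not an independent measure.

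**Figure D5:**
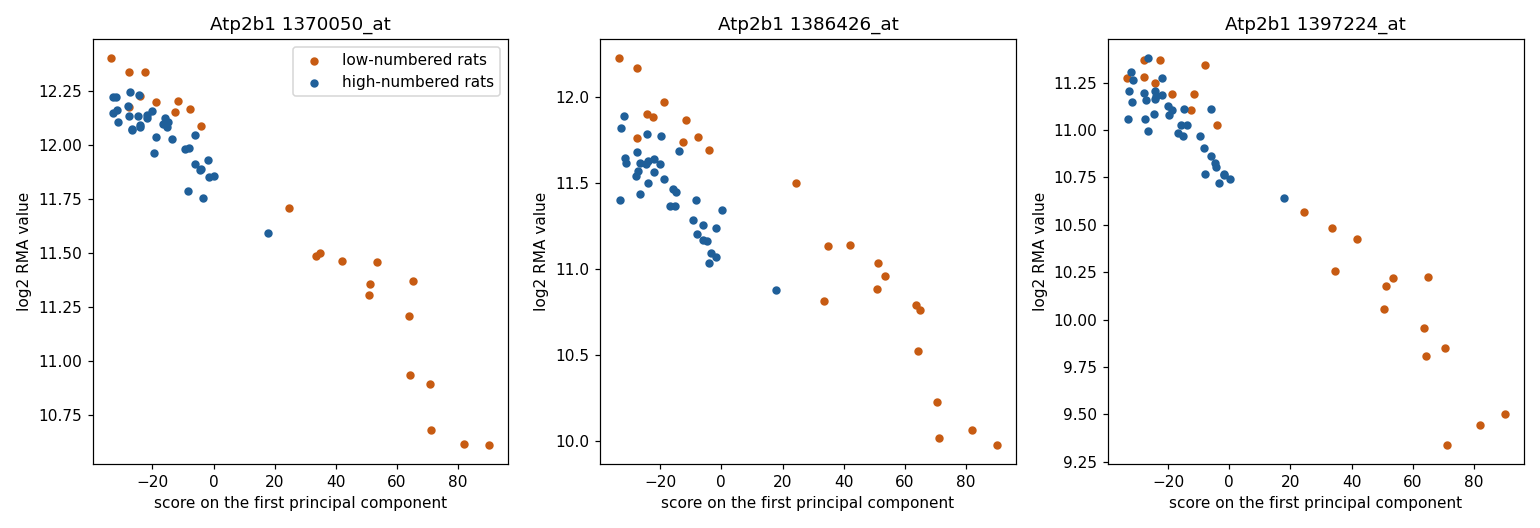
Log2 RMA values of the 3 Atp2b1 probe sets (vertical axes) against the score on the first principal component of all arrays (horizontal axes, no unit), with 1 point per rat. Values fall along the score in low-numbered rats (r from -0.96 to -0.97) and in high-numbered rats (r from -0.84 to -0.89).

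The other genes followed this axis less evenly. Atp1b1 1367814_at had r of -0.85 (rho -0.93) in low-numbered and -0.81 (rho -0.76) in high-numbered rats, with permutation p of 1e-05 and an adjusted p of 2.43e-05 for each r, and -0.83 and -0.74 without 2 rats. Of all probe sets, 28.7% and 5.69% had an r as large in these sets of rats. The other Atp1b1 probe set, 1386937_at, had -0.89 (rho -0.92) in low-numbered rats. In high-numbered rats it had only -0.38 (rho -0.30, permutation p = 0.0227, adjusted p = 0.0386), where 61.2% of all probe sets had an r as large. Atp1b2 1369798_at, which differed most by rat number, had r of -0.42 in low-numbered rats (rho -0.37, permutation p = 0.0418, adjusted p = 0.0592) and 0.18 in high-numbered rats (rho 0.32, permutation p = 0.290, adjusted p = 0.330). Its other probe set had r of 0.34 (rho 0.37, permutation p = 0.105, adjusted p = 0.138) and 0.35 (rho 0.40, permutation p = 0.0378, adjusted p = 0.0573). The Slc8a2 values were 0.22 (rho 0.16, permutation p = 0.291, adjusted p = 0.330) and 0.21 (rho 0.35, permutation p = 0.217, adjusted p = 0.263). For Atp2a2 the brightest probe set had r of -0.80 in low-numbered rats (rho -0.85, permutation p = 1e-05, adjusted p = 2.43e-05) and 0.17 in high-numbered rats (rho 0.30, permutation p = 0.322, adjusted p = 0.342). Its dim probe set 1375164_at had 0.78 (rho 0.77, permutation p = 1e-05, adjusted p = 2.43e-05) and 0.55 (rho 0.56, permutation p = 0.000540, adjusted p = 0.00115). In low-numbered rats 36.9% and 39.8% of all probe sets had an r as large as these.

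Probe sets of the same gene moved together for some genes. Pairs were compared for 17 combinations in both sets of rats (34 relations). The 3 Atp2b1 pairs had r of 0.97 to 0.99 (rho 0.93 to 0.97) in low-numbered rats and 0.79 to 0.83 (rho 0.72 to 0.79) in high-numbered rats, each with a permutation p of 1e-05 and an adjusted p of 4.25e-05 for r, and without 2 rats 0.96 to 0.99 and 0.71 to 0.79. The Atp1b1 pair had 0.98 (rho 0.96, permutation p = 1e-05, 0.96 without 2 rats) in low-numbered and 0.58 (rho 0.55, permutation p = 0.00120, adjusted p = 0.00314, 0.55 without 2 rats) in high-numbered rats. For the Atp1b2 pair r was 0.10 (rho 0.01, permutation p = 0.642, adjusted p = 0.780) and 0.23 (rho 0.32, permutation p = 0.186, adjusted p = 0.275). The 2 brightest Atp2a2 probe sets had 0.94 in low-numbered rats (rho 0.87, permutation p = 1e-05, 0.86 without 2 rats) and 0.01 in high-numbered rats (rho 0.03, permutation p = 0.970). Other Atp2a2 pairs were mixed. With the dim 1375164_at, 1370426_a_at had -0.71 and 1369065_a_at -0.65 in low-numbered rats (permutation test, adjusted p = 0.000189 and 0.00190), but 1398862_at had 0.54. In high-numbered rats these were 0.06, -0.28 and 0.04. The Atp2b2 pair had 0.66 in low- and 0.42 in high-numbered rats, and the Slc8a1 pair 0.48 and -0.14.

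Within the low-numbered rats alone, a comparison added after the values were seen, 1 member was called at a dose. Atp2a2 1369065_a_at in the 3 rats given 1 mg/kg permethrin read 11.63, 11.58 and 12.36, against 12.01 through 12.39 to 12.47 in the 6 vehicle rats. Rats 1 and 2 lay below every vehicle rat and rat 3 lay among them. The log2 difference was -0.45 (SE 0.103, adjusted p = 0.0452 from limma), with 0.235% of all probe sets called, and in high-numbered rats it was 0.02 (SE 0.089, adjusted p = 1.00). At an unadjusted p under 0.05, 9 of 17 members and 19.1% of all probe sets passed in low-numbered rats at this dose. The test of the difference between both sets of rats called 0 members (0.00644% of all probe sets), with an adjusted p of 0.393 for this probe set. At 10 mg/kg permethrin the low-numbered rats gave 3 members with an unadjusted p under 0.05, all of Atp2b1 (-0.73, -0.94 and -0.79), with adjusted p of 0.101, 0.0963 and 0.112, where 27.2% of all probe sets passed. The same rats had low values on Atp2b1 1370050_at as on Atp2a2 at 1 mg/kg, 10.90 and 10.61 in rats 1 and 2 against 12.18 in rat 3.

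The genes most like each member were found by Pearson's r over the 60 arrays after the mean of each dose group within each array group was subtracted, as a description with no test. They were Pum2 (0.99), Ddx5 (0.98) and Capza2 (0.98) for Atp2b1, Csnk1a1 (0.95), Ywhaq (0.94) and Nptn (0.94) for Atp1b1, and Ywhaz (0.94), Ywhah (0.90) and Ywhag (0.89) for Atp2a2. For Atp2b2 they were Cyfip2 (0.79), Ctxn1 (0.77) and Rab6b (0.75), for Slc8a1 Wipf1 (0.76), Rnf111 (0.75) and C9h2orf49 (0.75), for Slc8a2 Elk1 (0.77), Pacsin1 (0.77) and Camk2a (0.77), and for Atp1b2 Sall2 (0.69), Adgrg1 (0.68) and Gpr37l1 (0.68). Among the members, Atp1b1 and Atp2a2 were closest (0.83), then Atp1b1 and Atp2b1 (0.82). The lowest was Atp1b2 with Atp2b1 (-0.50). All of these values share the 60 arrays and their first component.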

How the data were processed

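RNA from the frontal cortex of each rat was hybridized to 1 array. The authors deposited log2 values made with RMA (background correction, quantile normalization and probe set summary), and the labels give no version. No raw array files were analysed here, and arrays have no read depth, so their number limits the precision. All 60 arrays were used, grouped by the labels, and all value columns were matched to samples. Gene symbols came from the platform annotation, in which 20826 probe sets had 1 symbol, 436 several and 9780 none. The members and gene lists were chosen with earlier results of these data known.

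Comparisons used limma 3.58.1 in R 4.3.3, with moderated variances and p adjusted by Benjamini-Hochberg across the 31042 probe sets with a threshold of 0.05. Dose groups were compared in 1 fit of all arrays, and each linear dose trend was fitted on the vehicle rats and those of its compound. The differences between rat numbers were fitted on vehicle and on dosed rats separately. Dose differences within low- or high-numbered rats came from another fit of all arrays, with a mean for each dose group in each set. The array groups came from k-means on the first 2 principal components (scikit-learn 1.9.0). The fit was tested on simulated data. SAM and PIR dose scores, with 100 permutations and an empirical p under 0.01, and the correlations were computed in Python 3.11.15 with numpy 2.4.6. No 2 arrays were identical, with a smallest median absolute difference of 0.076. All members were named with every probe set. From each pathway list those genes were named that passed a comparison, or else the 1 whose p was lowest at the top dose of each compound, and for each member the 3 genes most like it. Alternatives changed the block, the covariates, the scale, the filter on dim probe sets, the variance prior and the arrays in the fit.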

Additional observations from a re-analysis of the deposited data

Results flagged for a closer look

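Of 102 combinations of a probe set and a dose group of 8 rats, 3 held a rat far from the other 7 by Dixon's criterion, where chance alone marks about 5% of groups. Atp2b2 1387285_at read 9.99 in permethrin 1 mg/kg rat 3, above the others (9.25 to 9.46). Atp2a2 1375164_at read 5.85 in the same rat, below the others (6.22 to 6.49). Atp2a2 1391771_at read 6.51 in deltamethrin 1 mg/kg rat 7, above the others (6.16 to 6.30). Permethrin 1 mg/kg rat 3 is also the low-numbered rat of that dose whose Atp2a2 1369065_a_at value lay among the vehicle rats (12.36). No test of the difference in dose effect between low- and high-numbered rats called a member.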

How the results depend on the processing

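The 12 dose comparisons kept 0 called members under the array group as a block, the first component as a covariate, the replicate block, median-centred arrays, linear values, bright probe sets only, the trended and robust prior, the arrays of the groups compared, dose ranks, SAM and PIR scores (each where it applies), and leaving out each array in turn (0 to 0). The exception was 1 mg/kg permethrin in low-numbered rats only, with 1 called. With the replicate block 0 members were called at 3 mg/kg deltamethrin and 0 at 100 mg/kg permethrin; same-numbered rats correlated at a median of 0.37 (-0.82 to 0.90), and 17 of 60 arrays correlated best with their own number, so the numbers were not taken as pairs. Among vehicle rats the called count of members ran from 2 to 4 when 1 array was left out, with the lowest count without vehicle rat 4. Among dosed rats it ran from 10 to 14. Over all 31042 probe sets the called count ran from 1099 to 1790 in vehicle rats and from 17501 to 19173 in dosed rats. Some calls by rat number were lost. In vehicle rats Atp1b2 1379906_at lost its call with centred arrays (adjusted p = 0.0572 from limma) and linear values (adjusted p = 0.0566), and Slc8a1 1372449_at with the robust prior (adjusted p = 0.0553). In dosed rats Atp1b1 1386937_at, Atp2a2 1369065_a_at and Atp2a2 1391771_at lost theirs with centred arrays, and Atp2b1 1386426_at and Atp2a2 1369065_a_at with linear values; the cause was not tested.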
